A study of Mus musculus with 6 samples.

Results

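The respiratory chain subunits encoded in the nucleus were followed in the endothelium of mouse liver sinusoids, 14 days after partial hepatectomy (PHx). They were taken as the protein-coding genes off the mitochondrial chromosome whose symbols begin as those of complex I (Nduf with a, b, c, s or v and a digit), complex II (Sdha to Sdhd), complex III (Uqcr), complex IV (Cox4 to Cox8) or complex V (Atp5). The pattern found 84 of the 48897 genes in the table, 37 for complex I, 4 for complex II, 8 for complex III, 18 for complex IV and 17 for complex V. The pattern goes by name, so it also takes Ndufa4, now placed with complex IV, its relative Ndufa4l2, Cox7a2l, a factor that joins complexes III and IV, and Atp5s and Atp5sl, which are not structural subunits of ATP synthase. It leaves out Ndufab1 and Cyc1, which are subunits under other names. The group of 3 PHx libraries (PHx 1, 3 and 4) was set against 3 libraries from sham-operated mice of the same day (Sham 1, 3 and 4). All were C57BL/6 mice listed at 7 to 8 weeks of age, with no transgene or other allele named, and the endothelial cells were taken with magnetic beads against CD146, the product of Mcam. The labels do not state whether a library came from a single mouse or a pool, so p-values rest on the spread among these libraries alone, and that spread may be technical.

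As background, the chain sits in the inner mitochondrial membrane. Complexes I and II take electrons from NADH and succinate, complex III passes them to cytochrome c, complex IV hands them to oxygen, and ATP synthase, called complex V, uses the resulting proton gradient to make ATP. Most subunits are encoded in the nucleus and imported, and a few of the membrane core are encoded by mitochondrial DNA. Endothelial cells are known to draw much of their ATP from glycolysis. Several subunits have paralogues used in particular tissues or under low oxygen, among them Ndufa4l2, a gene induced by hypoxia-inducible factors and abundant in pericytes.

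The libraries held between 38765116 and 51888481 counts. The 8 sinusoidal endothelial markers were all detected, with a summed level of 13542 to 20593 CPM (counts scaled to library size and between libraries) in PHx and 23513 to 26302 CPM in Sham. The 11 stellate cell and pericyte markers summed to 5333 to 6891 CPM in PHx and 1792 to 2319 CPM in Sham, none of them at 0, and 7 of the 11 passed the test as higher. DESeq2 called 9 of these 11 higher and 3 of the 8 endothelial markers lower. Among all genes DESeq2 called 3.8% higher and 0.439% lower, and edgeR called 0.846% higher. EdgeR called no endothelial marker and gave 4 lower at an unadjusted p under 0.05, where 4.73% of all genes were. Of the 8 endothelial markers 6 had PHx below all Sham libraries, beside 9.96% of all genes, and 2 had a positive log2 fold change. Mcam, whose product the beads bound, is among the 8. In bulk RNA, fewer cells of a type and less RNA per cell cannot be told apart. In edgeR's quasi-likelihood test with Benjamini-Hochberg adjustment over 19033 genes, 161 genes were higher and 3 lower in PHx at an adjusted p under 0.05. The number higher was 58, 82 and 160 without PHx 1, 3 and 4, and 34, 6 and 0 without Sham 1, 3 and 4.

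The result turns on a pair of paralogues, whose coding sequences are shown because reads from a stretch they share could be assigned to either. They are from the GENCODE M21 transcripts Ndufa4l2-201 and Ndufa4-204 (GRCm38), 5′ to 3′, with runs of at least 12 bases that are identical in the alignment of both in capitals.
Ndufa4l2: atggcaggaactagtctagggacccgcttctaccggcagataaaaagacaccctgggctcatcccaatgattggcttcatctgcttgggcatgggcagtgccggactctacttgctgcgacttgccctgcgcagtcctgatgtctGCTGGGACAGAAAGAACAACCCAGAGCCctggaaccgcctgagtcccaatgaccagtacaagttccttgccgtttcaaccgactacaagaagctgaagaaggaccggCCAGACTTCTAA
Ndufa4: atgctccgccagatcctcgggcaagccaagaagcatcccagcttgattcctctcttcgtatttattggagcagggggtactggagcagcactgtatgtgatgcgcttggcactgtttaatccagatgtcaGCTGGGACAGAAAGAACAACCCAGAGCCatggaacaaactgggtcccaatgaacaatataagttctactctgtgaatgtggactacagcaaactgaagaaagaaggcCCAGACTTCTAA
The coding sequences of 264 and 249 bases were identical at 174 of 242 aligned bases (71.9%), and their longest shared run was 28 bases.

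Of the 84 subunit genes 80 passed the filter on low counts, and Ndufa4l2 was the only one called, in the direction of higher in PHx. That is 1.25% of the 80, beside 0.862% of all genes tested in either direction and 0.846% higher. No subunit gene was called lower, where 0.0158% of all genes were. Adjusted p-values are from this edgeR test unless another tool is named. At an unadjusted p under 0.05 the test gave 1 higher and 6 lower subunit genes, where 7.93% and 4.73% of all genes were higher and lower (12.7% together). DESeq2 also called Ndufa4l2 higher and no other subunit gene, while it called 4.24% of all genes, 3.8% higher and 0.439% lower.

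Ndufa4l2 encodes a small mitochondrial protein related to Ndufa4 that is known to lower the activity of the chain under hypoxia. The gene lies on chromosome 10 (127514939 to 127517154, plus strand, mm10), and 32 of its bases overlap Shmt2 on the other strand. Its level was 6.12, 4.81 and 6.54 CPM in PHx 1, 3 and 4, against 1.86, 0.851 and 1.24 CPM in Sham 1, 3 and 4. The lowest PHx library stood well above the highest Sham library. The counts behind these levels were 317, 235 and 314 in PHx and 70, 44 and 61 in Sham. The log2 fold change was 2.15 ± 0.35 (SE, n = 3 per group), or 4.44-fold, with a 95% interval of 1.33 to 2.97 and an adjusted p of 0.0447 in edgeR. This call lies close to the threshold and was lost without any single library, at an adjusted p of 0.114, 0.0655 and 0.0868 without PHx 1, 3 and 4, and of 0.0931, 0.195 and 0.233 without Sham 1, 3 and 4. DESeq2 gave an adjusted p of 1.83e-07 on all libraries and of 1.03e-09 to 9.13e-05 when each library was left out, a check added after the data were seen.

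Ndufa4 (chromosome 6, 11900373 to 11907446, minus strand), the widely expressed relative, did not pass the test. Its level was 35.8, 37.5 and 33.3 CPM in PHx and 31.0, 41.8 and 36.3 CPM in Sham, a log2 fold change of -0.03 ± 0.13 whose 95% interval ran from -0.34 to 0.28. Per length, by the authors' RPKM (reads scaled by gene length and library total), Ndufa4l2 amounted to 7.94%, 5.96% and 9.11% of Ndufa4 in PHx 1, 3 and 4. In Sham 1, 3 and 4 it amounted to 2.78%, 0.944% and 1.59%. The log2 ratio of Ndufa4l2 to Ndufa4 was 2.22 higher in PHx, and the libraries of the groups did not overlap. An exact two-sided permutation test gave p = 0.10, the smallest that 3 against 3 libraries allow, and an adjusted p of 0.40 over the 4 paralogue pairs compared. Ndufa4l2 remained a minor transcript beside Ndufa4 in every library.

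**Figure D1:**
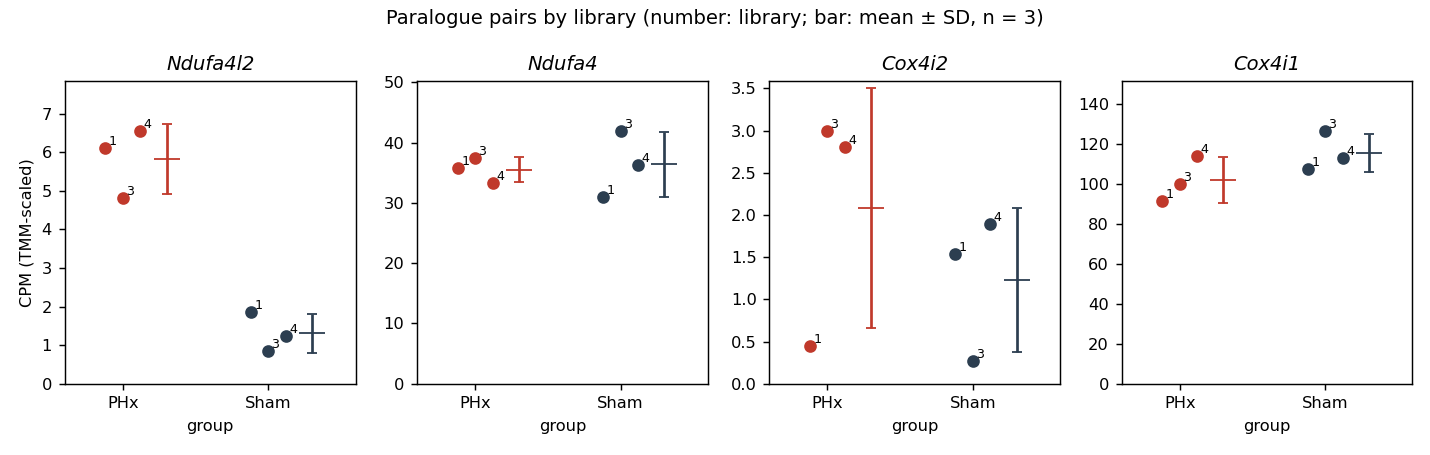
Level in CPM (vertical axis, from 0) of Ndufa4l2, Ndufa4, Cox4i2 and Cox4i1 in the 3 PHx libraries and the 3 Sham libraries, with the library number beside each point and mean ± SD beside each group. The PHx libraries of Ndufa4l2 lie between 4.81 and 6.54 CPM and the Sham libraries between 0.851 and 1.86 CPM, while the groups overlap for the other genes.

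Markers of mural and stellate cells moved with Ndufa4l2 in the same libraries, and their part in the result was not tested. Pdgfrb, a receptor of pericytes and stellate cells, stood at 141, 121 and 218 CPM in PHx and at 59.4, 49.5 and 37.7 CPM in Sham (log2 fold change 1.71 ± 0.26, adjusted p = 0.0448 in edgeR). Rgs5, a pericyte gene, stood at 459, 509 and 794 CPM in PHx and at 243, 185 and 161 CPM in Sham (1.58 ± 0.25, adjusted p = 0.0418). Both passed the test, though without Sham 1, 3 or 4 the adjusted p was 0.107, 0.248 and 0.202 for Pdgfrb and 0.103, 0.243 and 0.220 for Rgs5, without PHx 1 it was 0.106 and 0.0598, and without PHx 3 it was 0.0641 for Rgs5. Also called were Col1a2, Col3a1, Des, Lrat and Lum of the stellate and pericyte list and Acta2 and Tagln of the 4 smooth muscle markers, each of which lost its call without at least 1 library. The smooth muscle markers summed to 52.7 to 74.1 CPM in PHx and 24.2 to 35.2 CPM in Sham, with none at 0 in all libraries. Ratios of RPKM within a library, chosen after the values were seen, set Ndufa4l2 beside 6 mural and stellate genes. Against Pdgfrb they were 0.249, 0.229 and 0.172 in PHx and 0.179, 0.0986 and 0.189 in Sham, so the groups overlapped. Against Rgs5 the ratios were 0.0572, 0.0405 and 0.0353 in PHx and 0.0328, 0.0198 and 0.0329 in Sham, without overlap. Against Acta2 they were 0.420, 0.335 and 0.725 in PHx and 0.429, 0.181 and 0.312 in Sham, and against Col1a2 0.0411, 0.0186 and 0.0522 in PHx and 0.0797, 0.0329 and 0.0433 in Sham, both with overlap. Against Cspg4 they were 17.97, 10.2 and 31.4 in PHx and 8.18, 4.03 and 13.6 in Sham, again with overlap. Against Col1a2 the mean was lower in PHx than in Sham, unlike against the other genes given here. Higd1b was near 0 and had no count in Sham 3, so that ratio is not given.

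None of the 14 tested hypoxia-inducible genes was called in edgeR. Over all genes 0.846% were called higher, a share so small that no call among 14 genes cannot be told apart from it. DESeq2 called 1 of them higher, Egln3, a prolyl hydroxylase that acts on hypoxia-inducible factors, where it called 3.8% of all genes higher. At an unadjusted p under 0.05 in edgeR 5 of the 14 were higher, where 7.93% of all genes were. Of the 14, 12 had a positive log2 fold change, beside 53% of all genes, the median was 0.40, and 3 had PHx libraries above all Sham libraries, beside 10.6% of all genes. The most abundant per length were Ldha, a lactate dehydrogenase subunit (0.41 ± 0.26, adjusted p = 0.540), and Ddit4, a stress-induced inhibitor of mTOR signalling (0.49 ± 0.19, adjusted p = 0.345). Ldha stood at 404 CPM in PHx 4 and at 196 to 231 CPM in the other libraries.

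Apart from Ndufa4l2 the subunit genes lay close together. Among the 80 tested, 68 (85.0%) had a log2 fold change within 0.25 of 0, beside 48.8% of all genes tested. The median was -0.07 beside 0.03 over all genes, and 61 of the 80 (76.2%) were negative, beside 47.0% of all genes. Without scaling factors 49 of 80 were negative, with a median of -0.03 beside 0.06 over all genes, and with upper-quartile factors 63 were. Among genes of at least 5 CPM in 3 libraries 46 of 75 were negative, with a median of -0.037 beside 0.007 over those genes. The SE of a single subunit gene was 0.13 at the median, beside 0.27 over all genes. For 75 of the 80 the 95% interval lay within a 2-fold change in either direction, and for 68 it lay within 1.5-fold. The 5 with a wider interval were Ndufa4l2, Cox4i2, Cox6b2, Cox7a1 and Atp5s. Across all 6 libraries the coefficient of variation of a subunit gene was 10.6% at the median, beside 24.4% over all genes. It reached 71.6% for Ndufa4l2 and 69.2% for Cox4i2. The subunit genes were also more abundant, with a median RPKM of 31.2 beside 3.10 over all genes tested. These comparisons were not matched for level, so a smaller spread particular to the subunit genes was not tested.

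**Figure D2:**
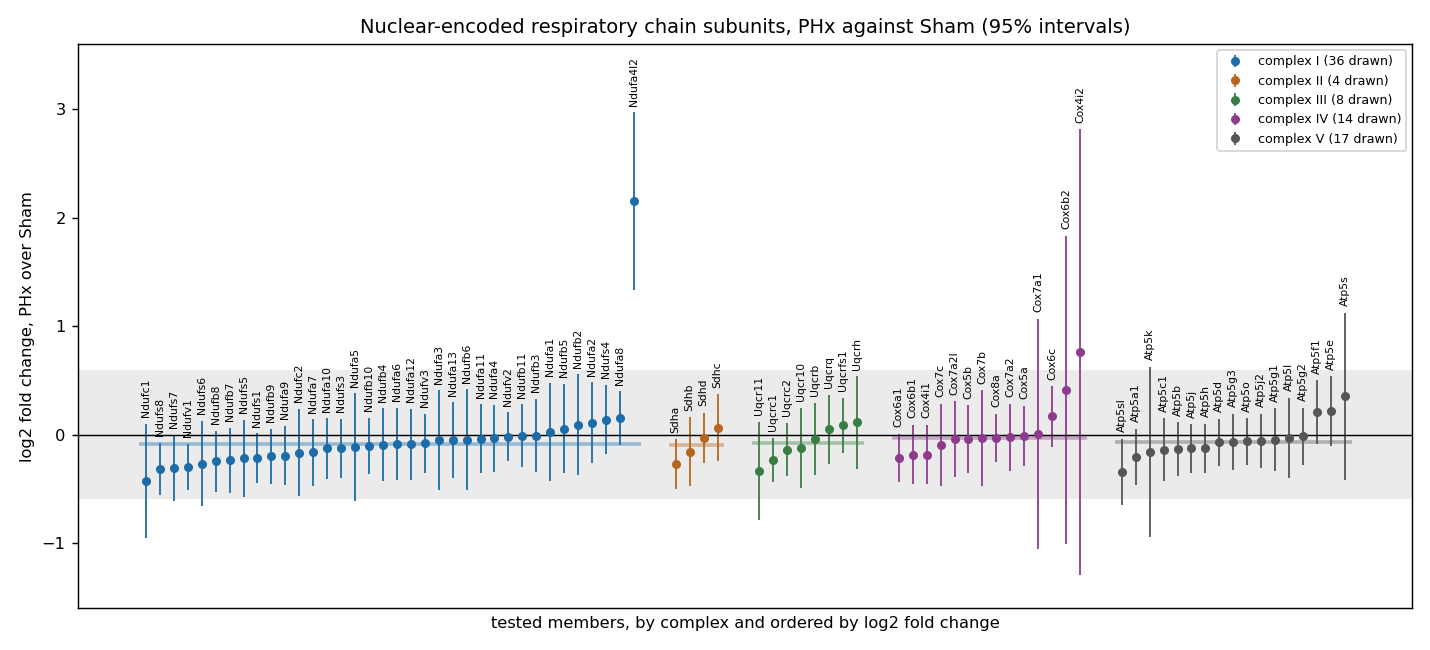
Log2 fold change of PHx over Sham (vertical axis) of 79 of the 80 tested subunit genes, ordered within complexes I to V (horizontal axis), with 95% intervals as vertical lines, the median of each complex as a pale bar and the band of 1.5-fold in grey. Ndufa4l2, at 2.15, is the one gene drawn whose whole interval lies outside the band, and the complex medians lie between -0.09 and -0.03.

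The groups did not overlap for 14 tested subunit genes, while they did not for 20.5% of all genes. In 12 (15%) all PHx libraries lay below all Sham libraries, where 9.96% of all genes did, and in 2 (2.5%) all lay above, where 10.6% did. The 12 had log2 fold changes between -0.42 and -0.20 and adjusted p between 0.252 and 0.489, so none passed. They were spread over all 5 complexes, with 7 in complex I, 2 in complex V and 1 in each of the others.

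Complex I had 37 tested members with a median log2 fold change of -0.09, or also -0.09 without Ndufa4 and Ndufa4l2, and 29 were negative. Its 7 nuclear-encoded core subunits, which between them carry the flavin, the iron-sulphur centres and part of the quinone site, had a median of -0.22. They ran from -0.32 to 0.04, so they were not all lower, and those described below are the lowest. The 28 accessory subunits had a median of -0.09. Ndufv1, which binds the flavin that accepts electrons from NADH, stood at 52.3, 52.2 and 47.9 CPM in PHx and at 64.0, 62.3 and 61.0 CPM in Sham. Its log2 fold change was -0.30 ± 0.09 with an adjusted p of 0.252, the smallest among the members but Ndufa4l2. All PHx libraries lay below all Sham libraries, and the 95% interval ran from -0.51 to -0.08.

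Ndufs8, an iron-sulphur subunit next to the quinone site, stood at 29.2, 26.1 and 27.9 CPM in PHx and at 36.0, 33.5 and 34.2 CPM in Sham (-0.32 ± 0.10, adjusted p = 0.280). Ndufs7, its iron-sulphur neighbour, stood at 25.6, 21.4 and 26.1 CPM in PHx and at 28.9, 33.2 and 28.1 CPM in Sham (-0.30 ± 0.13, adjusted p = 0.393). Both had groups that did not overlap and neither passed the test. The accessory subunits ranged from Ndufc1 to Ndufa8. Ndufc1 of the membrane arm was at 5.12, 4.12 and 4.15 CPM in PHx and at 5.57, 5.39 and 6.99 CPM in Sham (-0.42 ± 0.23, adjusted p = 0.482). Ndufa8 was at 52.8, 50.5 and 49.3 CPM in PHx and at 48.7, 40.8 and 47.9 CPM in Sham (0.15 ± 0.11, adjusted p = 0.581), the one other member with PHx libraries above all Sham libraries.

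Complex II is wholly nuclear-encoded and also serves the citric acid cycle. Sdha, its flavoprotein (chromosome 13, 74322255 to 74350240), stood at 148, 153 and 133 CPM in PHx and at 169, 175 and 180.3 CPM in Sham. The groups did not overlap, and the log2 fold change was -0.27 ± 0.10 with an adjusted p of 0.328. The other subunits overlapped between groups. Sdhb, the iron-sulphur subunit, had a log2 fold change of -0.16 ± 0.14, and the membrane anchors Sdhc and Sdhd had 0.06 ± 0.13 and -0.03 ± 0.10. Sdhc stood at 41.6 CPM in Sham 1 and between 52.4 and 57.6 CPM in the other libraries.

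The 8 members of complex III had a median of -0.08, with 5 negative. Uqcrc1, a core protein on the matrix side, stood at 84.2, 86.3 and 81.1 CPM in PHx and at 95.8, 97.6 and 102 CPM in Sham (-0.23 ± 0.09, adjusted p = 0.345), and its groups did not overlap. The extremes of the complex were small accessory subunits. Uqcr11 was at 12.1, 10.8 and 12.1 CPM in PHx and at 11.8, 18.5 and 13.7 CPM in Sham (-0.33 ± 0.19). Uqcrh, the hinge protein that helps cytochrome c dock, was at 26.6, 30.7 and 43.1 CPM in PHx and at 30.1, 29.4 and 33.2 CPM in Sham (0.11 ± 0.18). The most abundant by RPKM, Uqcrb at 61.0, had a log2 fold change of -0.04 ± 0.14. Uqcrfs1, the Rieske iron-sulphur protein, had 0.09 ± 0.11.

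Complex IV had 18 members, of which 14 were tested, with a median of -0.03 and 10 negative. Cox7b2 and Cox8c, known from testis, had a count of 0 in every library, which allows up to 3 counts per library, or 0.0578 to 0.0774 CPM, for counting error only. Cox6a2 and Cox8b, known from heart and skeletal muscle, were too scarce to be tested. Cox6a2 had 26, 14 and 0 counts in PHx and 2, 6 and 1 in Sham, and Cox8b had 1, 5 and 7 in PHx and 7, 5 and 6 in Sham. The widely expressed isoforms carried nearly all of the signal. Cox6a1, the most abundant of the complex at an RPKM of 184, stood at 91.3, 85.0 and 95.8 CPM in PHx and at 101, 112 and 103 CPM in Sham (-0.22 ± 0.10, adjusted p = 0.408), and its groups did not overlap. Cox4i1 followed with an RPKM of 142 and had 91.5, 99.8 and 114 CPM in PHx and 107.5, 126 and 113 CPM in Sham (-0.18 ± 0.12). Cox8a, at an RPKM of 90.4, had a log2 fold change of -0.03 ± 0.10, and Cox6b1 had -0.18 ± 0.12.

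Cox4i2, the isoform of subunit IV known from lung, pericytes and low oxygen (chromosome 2, 152752537 to 152765039, mm10), differed more within groups than between them. It stood at 0.444, 2.99 and 2.81 CPM in PHx and at 1.54, 0.271 and 1.89 CPM in Sham (0.76 ± 0.87, adjusted p = 0.738). Both groups held a low library, PHx 1 and Sham 3, and the groups overlapped. Its gene overlaps Bcl2l1 on the other strand by 6308 bases, and use of strand is not given in the sources used here, so its reads and those of Bcl2l1 may be mixed. Relative to Cox4i1 per length it amounted to 0.168%, 1.04% and 0.856% in PHx and to 0.496%, 0.0745% and 0.580% in Sham (exact permutation p = 0.50). Cox7a1, the heart and muscle isoform, amounted to 5.35%, 6.52% and 7.75% of Cox7a2 in PHx and to 5.01%, 6.43% and 7.71% in Sham (exact permutation p = 0.70). Cox6a2 amounted to 0.445%, 0.273% and 0% of Cox6a1 in PHx and to 0.0423%, 0.0840% and 0.0160% in Sham (exact permutation p = 0.60). Adjusted over the 4 pairs, the exact permutation p of these last pairs was 0.70 each. Cox6b2, known from testis, was at 0.246 to 0.604 CPM in PHx and 0.239 to 0.406 CPM in Sham. Cox7a2l stood at 67.2, 80.2 and 101 CPM in PHx and at 84.9, 83.9 and 87.3 CPM in Sham (-0.04 ± 0.15).

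Among the nuclear-encoded members ATP synthase had the highest median level per length. Its 17 members had a median RPKM of 57.6, against 24.6 for complex I, 40.3 for complex II, 34.3 for complex III and 50.1 for the tested members of complex IV. Atp5b, the catalytic beta subunit, led all members at an RPKM of 187. It stood at 331, 355 and 319 CPM in PHx and at 347, 375 and 379 CPM in Sham (-0.13 ± 0.11, adjusted p = 0.626), and the groups overlapped. Atp5a1, the alpha subunit, at an RPKM of 129, stood at 279, 313 and 281 CPM in PHx and at 319, 328 and 359 CPM in Sham (-0.20 ± 0.11, adjusted p = 0.487), with no overlap. Atp5j2, a small subunit of the membrane part, came next at an RPKM of 71.6 and had a log2 fold change of -0.06 ± 0.11.

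The 5 genes of F1, which holds the catalytic head and the central stalk, had a median of -0.13. The 4 of the peripheral stalk had -0.09, and the 3 that encode the identical c-ring protein, Atp5g1, Atp5g2 and Atp5g3, had -0.05. The c-ring genes had log2 fold changes of -0.05 ± 0.12, -0.01 ± 0.11 and -0.07 ± 0.11. Reads from the part they share may be split between them in ways the counts do not show. The lowest and highest log2 fold changes among the Atp5 names were those of Atp5sl and Atp5s, neither a structural subunit. Atp5sl, known as a factor of the membrane arm of complex I, stood at 20.1, 18.9 and 15.8 CPM in PHx and at 23.4, 22.5 and 23.5 CPM in Sham (-0.34 ± 0.13, adjusted p = 0.351), with no overlap. Atp5s stood at 3.96, 5.47 and 4.50 CPM in PHx and at 2.36, 3.40 and 5.12 CPM in Sham (0.35 ± 0.33, adjusted p = 0.678), and its log2 fold change ran from 0.10 without Sham 1 to 0.65 without Sham 4. Atp5e of the central stalk, counted with F1 above, and Atp5f1 of the peripheral stalk had 0.22 ± 0.14 and 0.21 ± 0.13.

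The complexes were set side by side in each library through the median of their tested members, each taken relative to its own mean over the 6 libraries on the log2 CPM scale. Complex I stood at -0.01, -0.06 and -0.03 in PHx 1, 3 and 4, and at 0.02, 0.09 and 0.09 in Sham 1, 3 and 4, the one complex whose groups did not overlap by this measure. Complex IV stood at -0.07, -0.07 and 0.07 in PHx and at -0.05, 0.12 and 0.06 in Sham. In complexes III, IV and V library PHx 4 lay with Sham 3 and 4, and library Sham 1 lay below the other Sham libraries. The members took 0.336%, 0.315% and 0.322% of all counts in PHx 1, 3 and 4, and 0.322%, 0.347% and 0.350% in Sham 1, 3 and 4. Complex V held the largest part, at 0.120% to 0.125% in PHx and 0.121% to 0.134% in Sham. Complex I took 0.0975%, 0.0878% and 0.0896% of all counts in PHx 1, 3 and 4. In Sham 1, 3 and 4 it took 0.0913%, 0.0967% and 0.0969%. By this share, which uses no scaling factors, the groups of complex I overlapped, and PHx 1 was the highest library.

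**Figure D3:**
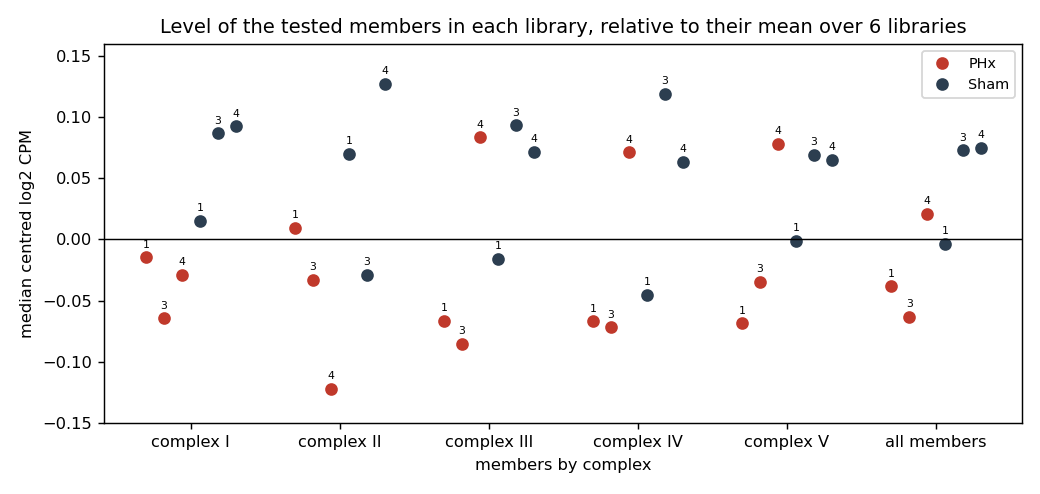
Median centred log2 CPM of the tested members of complexes I to V and of all members (horizontal axis) in the 3 PHx and 3 Sham libraries, with the library number above each point. All values lie within 0.13 of 0. On this scaled measure the groups are apart only for complex I, with PHx between -0.06 and -0.01 and Sham between 0.02 and 0.09.

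The subunits encoded by mitochondrial DNA share these complexes. All 13 had a positive log2 fold change, beside 53% of all genes. The values lay between 0.29 and 0.95 with a median of 0.40, where the nuclear set had a median of -0.07. Mean RPKM of the 13 ran from 6.84 to 4131, so their summed counts rest mostly on the genes with the most counts. How far this range reflects the counting, whose program is not given, was not tested. The 13 genes took 2.14%, 1.16% and 1.35% of all counts in PHx 1, 3 and 4, and 1.15%, 1.11% and 1.21% in Sham 1, 3 and 4. PHx 1 held the highest CPM of 12 of the 13 genes, and none of the 13 was called by edgeR or DESeq2. At an unadjusted p under 0.05 in edgeR 2 were higher, where 7.93% of all genes were. Counts of mitochondrially encoded over nuclear-encoded subunits gave ratios of 6.37, 3.68 and 4.19 in PHx and of 3.56, 3.20 and 3.46 in Sham. PHx lay above Sham in each case, by little in PHx 3.

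**Figure D4:**
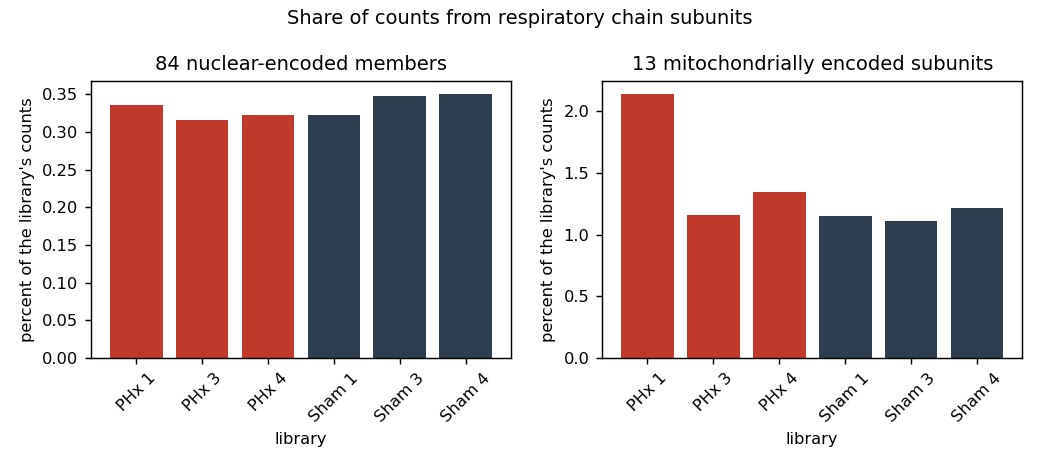
Share of each library's counts in percent (bars from 0) from the 84 nuclear-encoded members and from the 13 mitochondrially encoded subunits, with PHx bars left of Sham bars. The nuclear share lies between 0.315% and 0.350% in all libraries, and the mitochondrial share is highest in PHx 1 at 2.14%.

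The machinery around the chain gave no call either in edgeR or DESeq2. None of the 14 tested assembly factors of complex I was called, 10 were negative, and the median log2 fold change was -0.20. Their most abundant genes per length were Foxred1 (0.02 ± 0.43) and Ecsit (-0.48 ± 0.15, adjusted p = 0.279). Of 31 tested assembly factors of the other complexes 25 were negative, with a median of -0.11, and PHx lay below Sham in 9. Over all genes 47.0% were negative and 9.96% had PHx below Sham. Coa3 and Cox14, both factors for complex IV, had -0.30 ± 0.13 and -0.01 ± 0.13. Of 17 citric acid cycle and pyruvate dehydrogenase genes 15 were negative and 6 had PHx below Sham, with a median of -0.05, beside the same 47.0% and 9.96% of all genes. Mdh2, malate dehydrogenase, had -0.01 ± 0.11.

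Of 15 genes for mitochondrial biogenesis and DNA maintenance 12 were negative, with a median of -0.19. Polg, the mitochondrial DNA polymerase, had -0.23 ± 0.15, and Gabpa, a factor known to act on subunit promoters, had 0.20 ± 0.12. The 16 tested genes for cristae, supercomplexes and import had a median of -0.03, with Hspa9 at -0.11 ± 0.09 and Hspd1 at 0.23 ± 0.11, both chaperones of the matrix. The 8 carriers and channels had a median of 0.07, with -0.29 ± 0.11 for the uncoupling protein Ucp2 and 0.11 ± 0.14 for the phosphate carrier Slc25a3. Among 6 subunits and carriers with other names, Cyc1, the cytochrome c1 of complex III, had -0.15 ± 0.12 and Usmg5 of ATP synthase 0.09 ± 0.15. None of the genes in these lists was called by edgeR or DESeq2. At an unadjusted p under 0.05 edgeR gave 1 of the 14 assembly factors of complex I lower, 4 of the 31 of the other complexes, 2 of the 17 citric acid cycle genes, 1 of the 16 for cristae and import and 1 of the 8 carriers. It gave 1 of the 6 with other names higher and none of the 15 biogenesis genes in either direction. Over all genes 4.73% were lower and 7.93% higher at that p.

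Promoters of chain genes are known for sites of NRF1, GABPA and YY1. Windows of 300 bases, 250 before and 50 after the start, were listed by RefSeq (GRCm38.p6) for 69 of the 84 genes, as 75 windows. They held a median of 19 CpG, beside 7 over all 32851 windows. The NRF1 motif, GCGCA, any base and GCGC, on either strand, was in 24.0% of the members' windows and 4.60% of all windows. The letters CCGGAAG for GABPA were in 21.3% and 8.86%, and AAGATGGC for YY1 in 16% and 2.75%. These are matches of letters, not sites. The comparison was not matched for CpG, so an excess of these letters particular to chain genes was not tested. The NRF1 letters were in 1 of 13 genes of complex IV and 6 of 16 of complex V, and the YY1 letters in 7 of 32 of complex I and in none of 13 of complex IV. 6 members held at least 2 of the 3 motifs, and the windows of 2 of them, a most abundant member and a member of complex II, are shown, 5′ to 3′ on the strand of the gene, with matches on either strand in capitals.
Cox6a1, chr5:115348909-115349208, minus strand: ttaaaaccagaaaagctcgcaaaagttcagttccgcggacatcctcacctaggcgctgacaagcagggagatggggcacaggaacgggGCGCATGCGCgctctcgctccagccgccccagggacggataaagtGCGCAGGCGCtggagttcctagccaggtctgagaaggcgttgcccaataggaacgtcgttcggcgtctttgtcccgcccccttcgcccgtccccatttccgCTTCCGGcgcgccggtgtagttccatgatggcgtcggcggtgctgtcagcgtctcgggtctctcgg
Sdhd, chr9:50603800-50604099, minus strand: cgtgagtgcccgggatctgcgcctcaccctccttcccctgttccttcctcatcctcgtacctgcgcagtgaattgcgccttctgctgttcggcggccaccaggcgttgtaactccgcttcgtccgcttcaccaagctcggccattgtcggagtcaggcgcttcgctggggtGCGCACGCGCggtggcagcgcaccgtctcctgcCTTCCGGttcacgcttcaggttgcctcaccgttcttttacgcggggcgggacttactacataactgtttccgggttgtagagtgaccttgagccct
Cox6a1 holds 2 matches for NRF1 and 1 for GABPA, and Sdhd holds 1 of each. Their log2 fold changes were -0.22 ± 0.10 and -0.03 ± 0.10, and neither gene was called.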

How the data were processed

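The authors deposited a single table with whole-number counts per gene and RPKM values for 6 libraries, and gene lengths. The tools TopHat2 2.0.13 and bcl2fastq and the build mm10 (GRCm38) are listed in the submitters' processing notes. The counting program, annotation release and strand use are not given in the sources used here, so overlapping genes, pseudogenes and close paralogues may share counts. 25 of the 84 members overlap another listed gene. The deposited RPKM values equalled count over length and library total for 100% of values (relative tolerance 1e-06) and were used to compare levels between genes. The test on counts was the quasi-likelihood test of edgeR 4.0.16 under R 4.3.3 (TMM, filterByExpr, robust fit, group as the only term, Benjamini-Hochberg over 19033 genes). SE is the absolute log2 fold change over the square root of F, and 95% intervals use the fit's degrees of freedom. CPM values are TMM-scaled, averaged as mean ± SD (n = 3). Centred levels use a prior count of 2, and log2 ratios add 0.5 to each count.

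DESeq2 1.42.0, limma-voom (limma 3.58.1), other scalings, filters, thresholds, a replicate block and leaving out each library were alternatives. No 2 libraries agreed within sampling noise (chi-square per degree of freedom at least 49.9). The members and lists were chosen with earlier results of these data known. Named are the called members, the 3 most abundant by RPKM and the extremes of each complex, the Sdh genes, the paralogue families and, for each list, called genes or the 2 most abundant. Other genes named were chosen after their values were seen, and some genes the rule names are not reported here. Of 189 list entries 1 was not matched. The marker lists for hepatocytes, neutrophils, red cells and Kupffer cells had medians of -0.53, 3.12, 1.87 and -1.37, with no call in edgeR and with 1 neutrophil and 2 red cell genes higher at an unadjusted p under 0.05. DESeq2 called Hba-a1 and Hbb-bs higher, where it called 3.8% of all genes higher. At that unadjusted p edgeR gave 7.93% of all genes higher. Neutrophil markers summed to 590, 27.3 and 3804 CPM in PHx and to 277, 154 and 25.4 CPM in Sham (libraries 1, 3 and 4). Without PHx 4 the log2 fold change of S100a9 was 0.67, and it reached 3.76 without Sham 1. Kupffer markers summed to 88.0, 76.3 and 30.1 CPM in PHx and 322, 61.1 and 138 CPM in Sham, and that of Cd5l was -0.77 without Sham 1 and -2.26 without Sham 3. Sequences came from RefSeq windows and GENCODE M21, aligned with Biopython 1.88.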

Additional observations from a re-analysis of the deposited data

How the results depend on the processing

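Ndufa4l2 kept a positive log2 fold change in every fit that measured it. It was called with median-of-ratios, upper-quartile or no scaling factors, with no filter and with DESeq2, and missed the threshold with limma-voom (2.24, adjusted p = 0.0518) and with the replicate block (2.20, adjusted p = 0.130). Called members were 1 higher and 0 lower, and 0 higher with limma-voom, the block, an adjusted p under 0.01 and the filter of 5 CPM in 3 libraries, which removes Ndufa4l2. Leaving out each library gave 0 higher members and 1.88 to 2.45 for Ndufa4l2. Genes called higher and lower among all were 359 and 30 with no filter, 728 and 84 with DESeq2, 94 and 1 with limma-voom, 16 and 1 at an adjusted p under 0.01, 339 and 20 under 0.10, and 0 to 160 and 0 to 9 without each library. With the replicate number as a block they were 14 and 1. Deviations from the group means of libraries with the same number correlated at -0.10, -0.23 and 0.03, so the numbers were not taken as pairs. The median of complex I was -0.13 with upper-quartile factors, -0.0497 without factors and -0.0478 with the 5 CPM filter. Without each library, medians ran from -0.134 to -0.0405 for all members, -0.162 to -0.0721 for complex I, -0.200 to -0.0583 for complex II and -0.168 to -0.0456 for complex III. Counting Ndufa4 and Ndufa4l2 with complex IV moved no complex median beyond the replicate spread. The cause of these changes was not tested, except that fewer samples or genes entered some fits.

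Uncalled genes near 0 changed sign. With library totals alone Ndufa4 was at 0.00257, Cox8a 0.00783, Sdhd 0.00834, Cox7a2 0.014, Atp5g2 0.021, Cox14 0.032 and Mdh2 0.034. With the 5 CPM filter Ndufa4 was at 0.00779, Uqcrb 0.00294, Cox8a 0.012, Sdhd 0.011, Cox7a2 0.018, Cox7a2l 0.000190, Atp5g2 0.029, Cox14 0.035 and Mdh2 0.037. Cox7a1 was at -0.030 with upper-quartile factors, -0.024 with no filter and -0.00438 with DESeq2. Foxred1 was at -0.011, -0.00463, -0.00330 and -0.018 with upper-quartile factors, no filter, limma-voom and the block. Without each library the ranges were -0.16 to 0.051 for Ndufa4, -0.084 to 0.13 for Sdhc, -0.16 to 0.045 for Uqcrb, -0.11 to 0.25 for Uqcrh, -0.073 to 0.0097 for Cox8a, -0.14 to 0.23 for Cox7a1, -0.15 to 0.016 for Cox7a2, -0.21 to 0.079 for Cox7a2l, -0.12 to 0.0035 for Atp5g1, -0.100 to 0.053 for Atp5g2, -0.027 to 0.13 for Usmg5, -0.29 to 0.32 for Foxred1, -0.080 to 0.020 for Cox14, -0.087 to 0.058 for Mdh2 and -0.028 to 0.19 for Slc25a3. The log2 ratio of Cox4i2 to Cox4i1 ran from -0.011 to 1.75, and that of Cox7a1 to Cox7a2 from -0.12 to 0.18.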

Other observations

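Some members stood apart in single libraries, and these were picked after their values were seen. PHx 4 held the highest level of Uqcrh (43.1 CPM, against 26.6 to 33.2 CPM in the other libraries), of Cox7a2l (101 CPM, against 67.2 to 87.3 CPM) and of Atp5l (36.5 CPM, against 24.6 to 31.0 CPM). Sham 3 held the highest level of Atp5k (8.56 CPM, against at most 6.46 CPM) and of Uqcr11 (18.5 CPM, against 10.8 to 13.7 CPM).

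Foxred1, an assembly factor of complex I, stood at 25.9, 67.7 and 53.8 CPM in PHx 1, 3 and 4 and at 57.9, 28.3 and 59.2 CPM in Sham 1, 3 and 4. Its low libraries, PHx 1 and Sham 3, are also those with the lowest Cox4i2. This match was seen after the values were known, and the share of all genes with the same low libraries was not counted.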
